A study of Caenorhabditis elegans with 22 samples.

Results

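The comparison of drh-1 RNAi with control RNAi in wild-type Caenorhabditis elegans rested on 2 of the 22 samples of the study, 1 mRNA library from worms on each food, and it asks which transcripts differ when drh-1 is the RNAi target in animals with intact RNA editing and small RNA pathways. Both libraries came from whole animals of strain N2. Starved larvae were put on Escherichia coli HT115 that expressed double-stranded RNA (dsRNA) for drh-1 or carried the control vector L4440, and were collected after 71 h at 20 °C as day 1 adults with embryos (labelled 70 h after L1 arrest). Polyadenylated RNA was made into strand-specific libraries. Beside these stand 4 other mRNA libraries: wild type on nrde-3 RNAi, and strain GR1744, on control, drh-1 and nrde-3 RNAi. That strain is labelled with the alleles gv6 of adr-1 and mg379 of eri-6 on 1 chromosome and gv42 of adr-2, so it is mutant for both ADAR genes, which edit adenosine in dsRNA, and for the ERI-6/7 helicase, and is called the triple mutant below. With 1 library per food and genotype there is no spread between replicates, so no test was possible and every fold compares 2 libraries, not 2 conditions. Nothing in the labels shows how many cultures went into a library. The animals were used whole, so fewer cells of a type and less RNA per cell cannot be told apart.

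The product of drh-1 belongs to the helicases that resemble RIG-I, a mammalian sensor of viral RNA. In worms it binds dsRNA together with the dsRNA-binding protein RDE-4 and the nuclease Dicer (DCR-1), which cuts dsRNA into primary small interfering RNAs (siRNAs). The Argonaute RDE-1 carries primary siRNAs to their targets, where RNA-dependent RNA polymerases copy the target into many secondary siRNAs that other Argonautes use in the cytoplasm and the nucleus. DRH-1 is needed for antiviral RNAi against the Orsay virus, and it also starts a transcriptional programme known as the intracellular pathogen response. RNAi by feeding relies on much of this machinery.

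The targeted gene was not lower in the library labelled drh-1 RNAi. The drh-1 gene (WBGene00001090, IV:6607375-6613353, build WBcel235) is the only entry of its locus. Levels are in FPKM (fragments per kilobase of transcript, scaled for mapped fragments, separately in the drh-1 RNAi and nrde-3 RNAi tables). The level of drh-1 was 14.3 FPKM in wild type on control RNAi and 32.3 FPKM in the library labelled drh-1 RNAi. On the log2 scale of FPKM plus 1, which is used for all folds here and understates those of weak genes, the difference was 1.126. In the triple mutant drh-1 stood at 19.02 FPKM on control RNAi and at 65.4 FPKM in the one labelled drh-1 RNAi, a log2 fold of 1.73. Wild type on nrde-3 RNAi had 16.3 FPKM against 15.5 FPKM in the control library as scaled in the separate nrde-3 RNAi table. Both libraries labelled drh-1 RNAi thus held the highest values of drh-1, while a knockdown of the messenger would lower them. FPKM of a gene cannot tell worm mRNA apart from dsRNA of the same sequence carried over from the food bacteria, and the part of such RNA was not tested. All directions below are therefore those of the library labelled drh-1 RNAi, whatever happened to the DRH-1 protein. The nrde-3 gene, which encodes a nuclear Argonaute, was near its control level in wild type on nrde-3 RNAi, with 5.26 against 5.76 FPKM. In the triple mutant it was lower on nrde-3 RNAi, with 8.08 against 15.4 FPKM. It was lower there in the library labelled drh-1 RNAi too, with 5.47 against 14.2 FPKM.

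**Figure D1:**
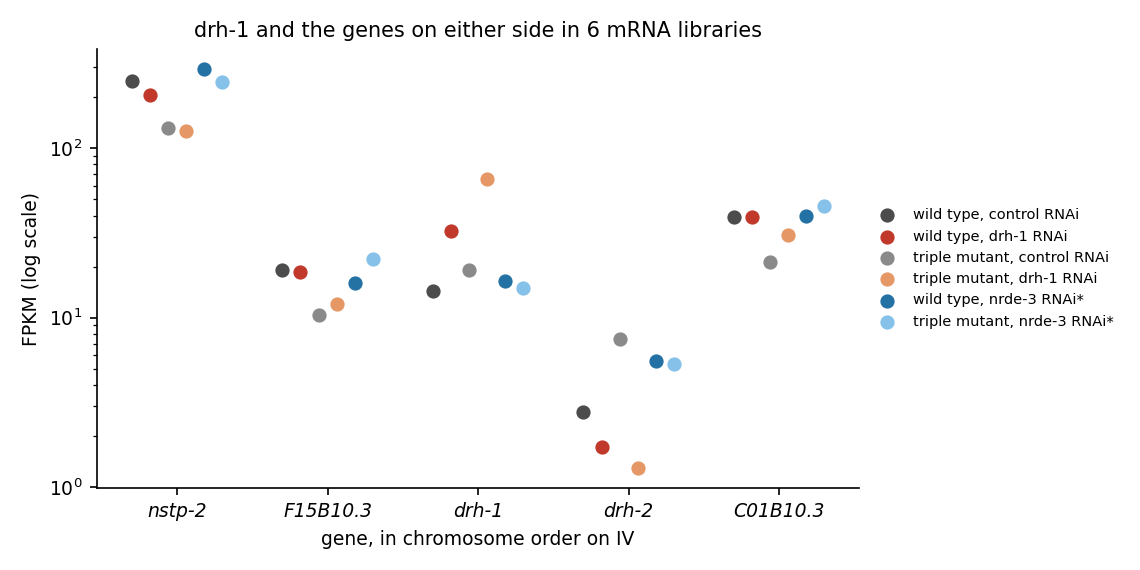
FPKM (log axis) of drh-1, its neighbours drh-2 and C01B10.3 on one side and nstp-2 and F15B10.3 on the other, in each of the 6 mRNA libraries, 1 point per library. The libraries marked with an asterisk come from a table that was scaled separately. Both points labelled drh-1 RNAi are the highest for drh-1, and at no neighbour are both of them the highest.

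The genes beside drh-1 did not share its difference. Its close relative drh-2, which RefSeq lists as a pseudogene and which lies 352 bp from drh-1, had 2.80 FPKM in wild type on control RNAi and 1.72 in the library labelled drh-1 RNAi, a log2 fold of -0.48. Between the same foods drh-2 went from 7.45 to 1.303 FPKM in the triple mutant. The next gene, C01B10.3, had 38.97 and 39.18 FPKM in wild type. On the other side nstp-2, named as a nucleotide sugar transporter, had 249 FPKM on control RNAi and 206 in the library labelled drh-1 RNAi, and F15B10.3, which shares its locus, had 19.2 and 18.6. Of these 5 genes drh-1 alone differed by 2-fold or more in wild type.

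Across the genome most transcripts were close in both wild-type libraries, with a slight shift towards lower values. Of 11452 genes with a locus of at least 200 bp and at least 1 FPKM in either library, the median log2 fold was -0.19, and the values ran from -1.26 at the 5th percentile to 0.83 at the 95th. At a fold of at least 4, 89 genes were higher in the library labelled drh-1 RNAi (0.777% of those tested) and 115 were lower (1.00%). At a fold of at least 2, 382 were higher (3.34%) and 1124 were lower (9.81%). With folds centred on the median, 597 were higher and 712 lower at 2-fold, so the higher share of these calls moved from 25.4% to 45.6%. Sequencing depth is unknown. The FPKM sum was 1.41e+06 in the control library and 1.66e+06 in the library labelled drh-1 RNAi, and the 100 strongest entries held 46.3% and 53.5% of it.

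**Figure D2:**
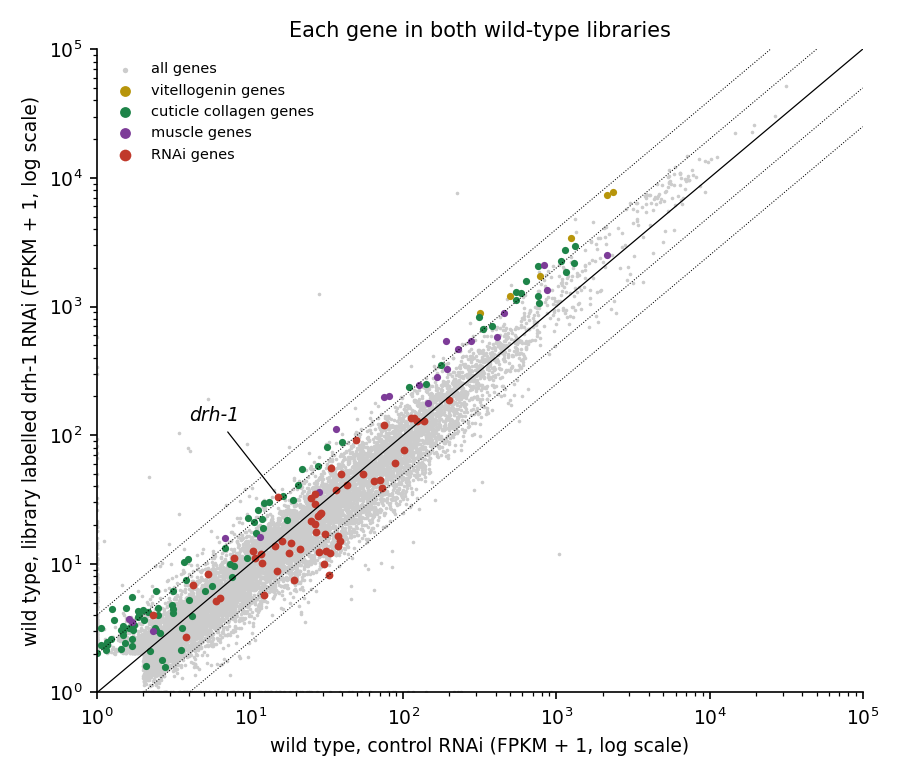
Each gene's level in wild type on control RNAi (x) and in the library labelled drh-1 RNAi (y), as FPKM + 1 on log axes, with lines at no difference and at 2- and 4-fold in each direction. Vitellogenin genes (gold), cuticle collagen genes (green) and muscle genes (purple) lie mostly above the line of no difference, and RNAi genes (red) lie on both sides, with drh-1 above it.

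Some messengers of the RNAi machinery were lower. Outside drh-1, 54 genes of the RNAi lists were tested, of which 0 were higher by 2-fold and 10 were lower by 2-fold or more (18.5%, against 9.81% of all genes). The share of protein-coding genes that were lower by 2-fold also varied with level. It was 11.9% at a mean of 8.30 to 24.4 FPKM, where 6 of these 10 genes lie, and 15.5% from 24.4 to 73.5 FPKM, where 3 lie, while dcr-1 was just below both ranges. With folds centred on the median, 7 of the 54 stayed past 2-fold (13%, against 6.22% of all genes), and dcr-1, drh-3 and nrde-1 fell just short. All 10 were lower by 2-fold or more in the triple mutant too. Of all 1042 genes lower by 2-fold in wild type that passed the filters in both genotypes, 35.3% were. Wild type on nrde-3 RNAi, set against the same control library, gave log2 folds between -0.28 and 0.59 for them. The median RefSeq gene length of the 10 was 5588 bp, against 3827 bp for the rest of the RNAi genes.

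Among genes for dsRNA recognition and its partners, dcr-1, drh-3 and rde-1 were lower by 2-fold and rde-4 was not. Dicer, dcr-1, had 11.2 FPKM in wild type on control RNAi and 4.75 in the library labelled drh-1 RNAi, a log2 fold of -1.09. The triple mutant's dcr-1 went from 23.7 to 2.402 FPKM, a log2 fold of -2.86, and in wild type on nrde-3 RNAi it was at 18.8 against 12.17. The helicase gene drh-3, whose product works with the RNA-dependent RNA polymerases, had 36.4 and 15.5 FPKM. The Argonaute gene rde-1 had 37.6 and 14.1 FPKM, a log2 fold of -1.35. Unlike these, rde-4 had 122 and 129 FPKM, a log2 fold of 0.07. So among the genes for partners of DRH-1 in dsRNA recognition, dcr-1 stood lower by 2-fold and rde-4 stood level.

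Of the RNAi genes tested, the RNA-dependent RNA polymerase genes rrf-1 and ego-1 were the lowest. The somatic enzyme gene rrf-1 (WBGene00004508, I:7643430-7649777) had 31.7 FPKM on control RNAi and 7.15 in the library labelled drh-1 RNAi, which made it the only RNAi gene lower by 4-fold. With centred folds (-1.81) or a pseudocount of 5 (-1.59) rrf-1 did not pass 4-fold. Without these changes its log2 fold was -2.002 in wild type and -2.203 in the triple mutant. The adjacent germline enzyme gene ego-1 had 29.2 and 8.93 FPKM, a log2 fold of -1.60. A further polymerase gene, rrf-3, which makes the dsRNA from which endogenous 26G siRNAs are cut, had 18.3 and 6.47 FPKM, a log2 fold of -1.37. Genes for other factors of secondary siRNA synthesis moved little: mut-16, the scaffold of the perinuclear mutator foci, had 17.5 and 13.4 FPKM, the exonuclease gene mut-7 had 28.0 and 23.8, and rde-10 had 9.76 and 10.01. Of the 14 tested genes on this list, rrf-1 and ego-1 were the 2 that passed 2-fold (14.3%, against 9.81% of all genes lower).

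In the 26G branch 2 of 8 tested genes were lower by 2-fold (25%), and among nuclear silencing genes 3 of 8 (37.5%), against 9.81% of all genes. Gene eri-7, which encodes a part of the trans-spliced helicase ERI-6/7, had 30.2 FPKM on control RNAi and 11.5 in the library labelled drh-1 RNAi, while its partner eri-6 had 13.8 and 7.77, a log2 fold of -0.76. The gene of their Argonaute, ergo-1, had 25.6 and 33.6 FPKM. Among nuclear factors, nrde-2 had 36.7 and 12.64 FPKM, nrde-1 had 26.97 and 11.4, and the histone H3 lysine 9 methyltransferase gene met-2 had 32.1 and 11.2. By contrast hrde-1, the germline nuclear Argonaute, had 115 and 134 FPKM, and the methyltransferase gene set-25 had 4.94 and 4.15. These loci are not all simple, since nrde-2 and met-2 lie in loci of 5 and 7 entries.

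Argonaute messengers other than rde-1 were level or somewhat higher. Of the 16 tested, 13 lay above the all-gene median and the list's median log2 fold was 0.32. The 1 member past 2-fold was rde-1, which was lower (6.25%, against 9.81% of all genes). The largest fold upward was that of wago-4, a germline Argonaute of secondary siRNAs. It had 48.2 FPKM on control RNAi and 89.9 in the library labelled drh-1 RNAi (log2 fold 0.88). The piRNA Argonaute gene prg-1 had 73.9 and 119 FPKM, and csr-1, which licenses germline messengers, had 136 and 128. Of 6 tested genes of dsRNA transport 0 passed 2-fold (over all genes 3.34% were higher and 9.81% lower). Their log2 folds ran from -0.84 to 0.66, with a median of -0.09. Among these transport genes sid-1, the gene of the dsRNA channel, had 13.5 and 12.7 FPKM. The gene sid-2, needed to take up dsRNA from the gut, had 10.7 and 10.9. Of the ADAR genes only adr-1 was tested, and it had 23.8 and 31.4 FPKM.

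**Figure D3:**
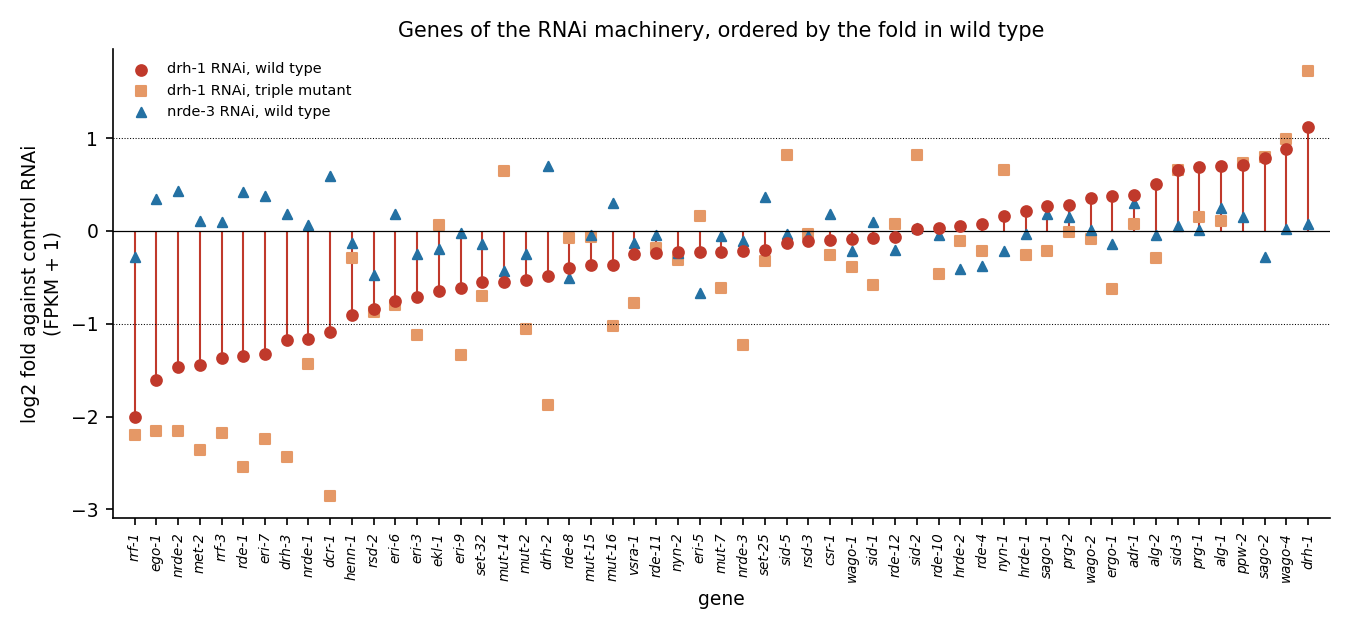
Log2 folds against control RNAi (FPKM + 1) of drh-1 and the 54 other RNAi genes, ordered by their fold in wild type (red circles), with the triple mutant (orange squares) and wild type on nrde-3 RNAi (blue triangles). The nrde-3 RNAi folds use the same control library as the red circles, and dotted lines mark 2-fold. The 10 lowest red circles each have an orange square below -1 and a blue triangle above -0.3.

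No tested gene of the intracellular pathogen response was higher by 2-fold. Since 3.34% of all genes were, counts of 0 in lists this small say little about the response. The pals genes, whose expression marks this response, had 10 tested members, of which 0 were past 2-fold in either direction, with a median log2 fold of -0.18. Among them pals-22, which encodes a repressor of the response, had 6.95 FPKM on control RNAi and 6.24 in the library labelled drh-1 RNAi, and pals-25, which encodes its antagonist, had 4.97 and 3.35. Of 12 response genes on the second list, which holds pals-26 as well, 0 were higher by 2-fold and 1 was lower (8.33%, near the 9.81% of all genes). It was C43D7.7, with 8.16 and 3.30 FPKM, and it did not pass with centred folds. The ubiquitin ligase gene cul-6 had 2.27 and 0.73 FPKM, and zip-1, which encodes a transcription factor of the response, had 2.09 and 2.196. Most of these genes were weak in both libraries, so folds on FPKM plus 1 are compressed.

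Tested loci known to be silenced through ERGO-1 were not higher by 2-fold either. Of 11 tested, 0 passed 2-fold and the median log2 fold was -0.33. Over all genes 3.34% were higher and 9.81% lower by 2-fold, so a count of 0 among 11 says little. C44B11.6 was level at 44.2 and 43.3 FPKM, and K02E2.6 had 16.8 and 15.7. Between the same foods in the triple mutant, whose eri-6 gene is needed for these siRNAs, the list had a median of 0.78. The list of retrotransposon genes recognised by symbol had no tested member.

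Many genes of the adult intestine, cuticle and muscle were higher. All 6 tested vitellogenin genes, the intestinal sources of the yolk proteins, were higher by more than 2-fold, with a median log2 fold of 1.47 against -0.19 over all genes. The gene vit-2 had 2334 FPKM on control RNAi and 7751 in the library labelled drh-1 RNAi, and vit-6 had 2150 and 7315. The triple mutant had 1597 and 4869 FPKM of vit-6 on the same foods and a list median of 1.61. Wild type on nrde-3 RNAi gave a median of 0.21 against the shared control library. Within the family vit-1 differed least, with 775 and 1734 FPKM. Copies such as vit-3, vit-4 and vit-5 are nearly identical, and the sources used here do not say how shared reads were divided among them.

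Other intestinal genes were higher by less. Of 17 tested proteases of the gut, 8 were higher by 2-fold with centred folds, against 597 of all 11452 genes. Without centring 4 were (23.5%, against 3.34% of all genes), all of them aspartyl protease genes. Of these asp-6 had 1336 and 3805 FPKM, asp-1 had 1727 and 4507, asp-5 had 489 and 1184, and asp-2 had 334 and 687. The broader list of intestinal markers had a median of 0.53, with 1 of 13 members higher by 2-fold (7.69%, against 3.34% of all genes). The 4 intestinal cell type markers, vit-2, vit-6, elt-2 and ges-1, summed to 4503 FPKM on control RNAi and 15090.3 in the library labelled drh-1 RNAi. Most of that sum is yolk messenger.

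Cuticle collagens and muscle genes also stood higher. Of 91 tested collagen genes, 42 were higher by 2-fold (46.2%, against 3.34% of all genes) and 0 were lower (9.81% of all genes). Their median log2 fold was 0.98, and it dropped to 0.46 with a pseudocount of 5. Many were weak, with a median level of 2.68 FPKM on control RNAi. Among the abundant adult collagens, col-140 had 1138 and 2770 FPKM and col-20 had 759 and 2053. Larval genes such as dpy-13, with 0.28 and 2.68 FPKM, had some of the largest folds at very low levels. Of 21 muscle genes 9 were higher by 2-fold (42.9%, against the same 3.34%) and 0 lower, with a median of 0.96. The body wall myosin heavy chain gene unc-54 had 35.1 and 110 FPKM, the paramyosin gene unc-15 had 74.2 and 196, and the troponin T gene tnt-2 had 188 and 540. The medians in the triple mutant were 0.61 for collagens and 0.82 for muscle, and in wild type on nrde-3 RNAi they were -0.07 and 0.05.

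Markers of several cell types were also summed, but some of them are members of the lists above, so they are not separate evidence. The 3 body wall muscle markers summed to 115 FPKM on control RNAi and 321 in the library labelled drh-1 RNAi, and the 3 hypodermis markers to 381 and 705. The 3 neuron markers measured were level, with sums of 149 and 151, and so were the 4 embryo markers, with 12.96 and 12.42. The list of 11 tested neuron genes, however, had a median log2 fold of -0.28, with 9 members below 0. The 3 germline markers summed to 585 and 783, but the list of 19 germline genes summed to 1580 and 1484, with a median log2 fold of -0.11 and 8 members above 0. Oocyte markers summed to 1053 and 1365 in wild type and to 2057 and 1711 in the triple mutant. Sperm markers, of which 22 of 37 were above 0 on control RNAi and 30 in the library labelled drh-1 RNAi, summed to 24.9 and 59.2. They are mostly major sperm protein genes, and the list of 43 other sperm genes had a median log2 fold of 0.04. The 2 pharynx muscle markers summed to 1.31 and 5.28 in wild type and to 2.89 and 0.61 in the triple mutant. Whether the animals of the libraries differed in age or tissue makeup was not tested.

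Lists of major sperm proteins, ribosomal proteins and histones had medians above that of all genes. Of 17 major sperm protein genes, 10 were higher by 2-fold (58.8%, against 3.34% of all genes), but their levels were low: msp-45 had 1.54 FPKM on control RNAi and 5.12 in the library labelled drh-1 RNAi, and msp-64 had 1.77 and 5.29. The median of this list was 1.06 and dropped to 0.45 with a pseudocount of 5. These near-identical copies share reads. The 43 other sperm genes had a median of 0.04. Of 71 ribosomal protein genes, 69 were above 0, with a median of 0.62, though 4 were higher by 2-fold (5.63%, against 3.34% of all genes). With centred folds 20 were, against 597 of all 11452 genes. Among the ribosomal protein genes rps-6 had 3025 and 6334 FPKM and rpl-4 had 2839 and 5740. The list's median in the triple mutant was 0.95. The list of 34 histone genes had a median of 0.45, with 3 higher by 2-fold (8.82%, against 3.34% of all genes). With centred folds 6 were, against 597 of all 11452 genes. The histone list holds the linker histone gene his-24, which had 23.95 and 56.9 FPKM in wild type but 125.6 and 62.2 in the triple mutant.

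**Figure D4:**
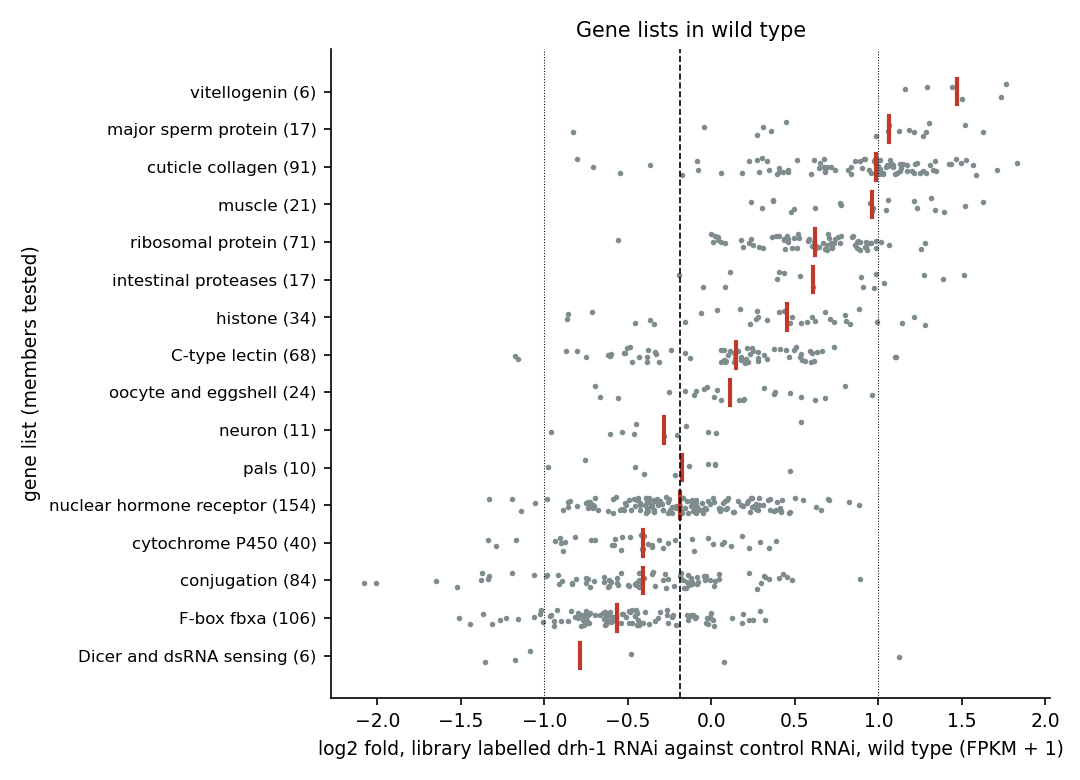
Log2 folds of list members in wild type (FPKM + 1), library labelled drh-1 RNAi against control RNAi, 1 grey point per gene with vertical jitter, the list median in red and the all-gene median of -0.19 as a dashed line; dotted lines mark 2-fold. The medians of vitellogenins, major sperm proteins, collagens and muscle genes lie furthest to the right, and F-box genes of the fbxa family and conjugation enzymes lie to the left.

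Some families of detoxification and protein turnover had medians below that of all genes. Of 84 tested UDP-glucuronosyl and glutathione transferase genes, 10 were lower by 2-fold (11.9%, near the 9.81% of all genes) and 0 higher, with a median log2 fold of -0.41 against -0.19 over all genes. The gene ugt-1 had 9.75 FPKM on control RNAi and 1.54 in the library labelled drh-1 RNAi, and gst-33 had 6.02 and 0.74. Both passed 4-fold, and neither did with centred folds, at -1.89 and -1.82. Both were also low in wild type on nrde-3 RNAi, at 2.98 and 0.94 FPKM. By contrast ugt-22 had 149 and 51.004 FPKM in the same pair of libraries and 199 on nrde-3 RNAi. Cytochrome P450 genes, which oxidise lipids and foreign compounds, had 3 of 40 members lower by 2-fold (7.5%, below the share of all genes) and a median of -0.41. The lowest were cyp-25A1 and cyp-25A2, with 17.9 and 6.48 FPKM for the former and 18.9 and 7.17 for the latter. Neither passed 2-fold in the triple mutant, where cyp-25A1 had 1.46 and 1.11 FPKM.

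The fbxa genes, which encode F-box proteins that choose targets of ubiquitin ligases, had 11 of 106 members lower by 2-fold (10.4%), near the 9.81% of all genes. With centred folds 6 of the 106 were lower, against 712 of all 11452 genes. The fbxa median of -0.57 lay below that of all genes, and 22 of 106 lay above the all-gene median. The strongest member, fbxa-215, had 314 and 121 FPKM, and fbxa-60 had 31.7 and 11.01. The family's median was 0.16 in the triple mutant and 0.02 in wild type on nrde-3 RNAi. The MATH and BTB families, substrate adaptors of another ubiquitin ligase class, had 3 of 62 members lower (4.84%, below the share of all genes) and a median of -0.35. F-box genes of the fbxb and fbxc families did not share the lower median. Of 76 tested, 43 lay above the all-gene median and 1 was lower by 2-fold (1.32%), with a median of -0.14.

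The largest folds came from short noncoding genes listed at 0 in 1 library. Of the 204 genes past 4-fold, 156 were listed at 0 in 1 of the 2 libraries, against 285 of all 11452 genes tested. A RefSeq class other than protein-coding held 151 of the 204, against 702 of the 11452. Most of these 151 were ncRNA, with 32 small nucleolar RNAs (snoRNAs) among them. Another 2 had no RefSeq match and so no class. No fold is given against a library at 0. Of the 12 largest differences upward, 9 were listed at 0 on control RNAi and 10 lay in a locus with other entries. The snoRNA Y24D9A.10 was listed at 0 on control RNAi and at 576 FPKM in the library labelled drh-1 RNAi, and F56F11.7 at 0 and 336. Downward, the snoRNA K12D12.8 had 915 FPKM on control RNAi and was listed at 0 in the library labelled drh-1 RNAi and on nrde-3 RNAi. The ncRNAs K10C2.11 and T21C12.12 had 236 and 227 FPKM on control RNAi and were listed at 0 on both other foods. Such RNAs are not polyadenylated as a rule, and the values given here differed widely between libraries of 1 genotype.

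Among protein-coding genes 26 were higher (0.243%) and 25 lower (0.233%) by 4-fold, and 253 were higher (2.36%) and 951 lower (8.88%) by 2-fold. The largest difference upward among those above 0 in both libraries was gyf-1, which encodes a GYF domain protein, with 27.01 FPKM on control RNAi and 1240.1 in the library labelled drh-1 RNAi. Wild type on nrde-3 RNAi had 838 FPKM of gyf-1 against 29.1, so the low value was that of the control library. The same held for F01E11.18, with 4.33 FPKM on control RNAi, 190.2 in the library labelled drh-1 RNAi and 177 on nrde-3 RNAi, and for the zinc finger gene sea-2, with 1.16, 46.3 and 74.1. Another group was high in the library labelled drh-1 RNAi and low on both other foods. It held C07E3.3, with 2.45, 103 and 4.14 FPKM, the G protein-coupled receptor kinase gene grk-1, with 2.93, 78.8 and 3.19, and the heterochronic gene lin-14, with 3.03, 74.5 and 6.10.

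Downward the protein-coding genes divided likewise. Y67H2A.10 had 1040.3 FPKM on control RNAi, 10.96 in the library labelled drh-1 RNAi and 16.51 on nrde-3 RNAi, and mob-3, a gene of the MOB kinase activator family, had 323, 42.5 and 40.7, so the control library was the one apart. In contrast egrh-2, which encodes a zinc finger protein related to early growth response factors, had 114, 13.8 and 153 FPKM, and F53H4.2 had 565, 128 and 621. The claudin-like gene clc-25 had 70.1 and 9.16 FPKM in the 2 foods of the comparison and 47.9 on nrde-3 RNAi. For these the library labelled drh-1 RNAi was the lower one.

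Most tested loci of the mitochondrial genome were lower in wild type and higher in the triple mutant. Of 8 tested, 5 were lower by 2-fold in wild type and 1 was higher, with a median of -1.15. Over all genes 9.81% were lower and 3.34% higher. The 5 lower loci and MTCE.26, which had 2899 and 1605 FPKM in wild type, were each higher by 2-fold in the triple mutant. Over all genes 6.61% were higher there. The log2 folds of these loci in the triple mutant ran from 1.19 to 1.80. Among the 5, MTCE.7 and MTCE.33 had 101 and 39.8 FPKM in wild type on control RNAi. In wild-type total RNA of the same study, scaled separately, they had 435453 and 526862 FPKM. The cytochrome c oxidase subunit gene listed as COX3 had 2280 FPKM on control RNAi and 951 in the library labelled drh-1 RNAi, while the cytochrome b gene ctb-1 had 2059 and 2040. The locus MTCE.16 (MtDNA:3362-4328) had 224 and 7601 FPKM. On nrde-3 RNAi it had 2577, and in the triple mutant 295 and 3182 on control RNAi and in the library labelled drh-1 RNAi. COX3 went from 938 to 2700.2 FPKM in the triple mutant.

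The same food was compared in the triple mutant, whose 2 libraries share none with wild type. Among 10861 genes that passed the filters in both genotypes, 368 were lower by 2-fold in both, which is 35.3% of the 1042 lower in wild type and 33.6% of the 1096 lower in the triple mutant. Another 91 were higher in both, 30% of the 303 higher in wild type and 13% of the 701 in the triple mutant. Opposite calls were fewer than shared ones at 2-fold, but whether they were fewer than unrelated lists would give was not tested. Of the 1042 genes lower in wild type, 65 were higher in the triple mutant, where 701 of all 10861 were higher. Of the 303 higher in wild type, 48 were lower in the triple mutant, where 1096 of all 10861 were lower. At 4-fold opposite calls outnumbered shared ones. There 7 genes were higher in both and 12 higher in wild type were lower in the triple mutant. Another 17 were lower in both, and 21 lower in wild type were higher in the triple mutant. Of the 10861 genes, 45 were higher and 73 lower by 4-fold in wild type, and 61 and 251 in the triple mutant. Across genes, which are not independent replicates, the log2 folds had a Pearson r of 0.23 and a Spearman rho of 0.28, and over the 7176 genes with at least 5 FPKM in both control libraries r was 0.42 and rho 0.39. In all tested genes of the triple mutant, 6.61% were higher and 11.4% lower by 2-fold.

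**Figure D5:**
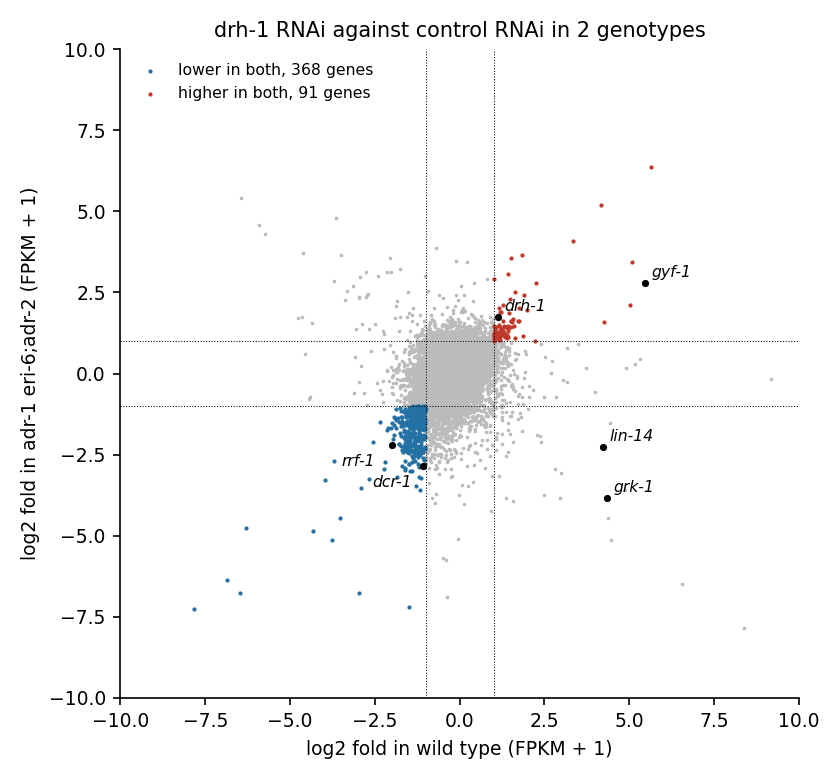
Log2 fold of the library labelled drh-1 RNAi against control RNAi (FPKM + 1) in wild type (x) and in the triple mutant (y), 1 point per gene, with dotted lines at 2-fold. Blue points are the 368 genes lower in both and red points the 91 higher in both; drh-1 and gyf-1 lie among the higher, rrf-1 and dcr-1 among the lower, and grk-1 and lin-14 in opposite directions.

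Besides drh-1, the genes higher in both genotypes included all 6 vitellogenin genes, the asp genes named above and unc-54, tnt-2, the myosin light chain gene mlc-2 and the troponin T gene mup-2. Single examples among them, chosen after their values were seen, were 2 enzyme genes: pod-2, which encodes acetyl-CoA carboxylase, had 30.2 FPKM on control RNAi and 83.7 in the library labelled drh-1 RNAi in wild type, and ahcy-1, which encodes adenosylhomocysteinase, had 1045 and 2109. These 91 genes had a median RefSeq length of 1310 bp, against 2260.5 bp over the 10861 genes.

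The genes lower in both genotypes were longer than those higher in both, but their median level was similar. Their median RefSeq length was 3485.5 bp, against 1310 bp for the genes higher in both and 2260.5 bp over the 10861 genes. In wild type on control RNAi their median level was 32.3 FPKM, and that of the genes higher in both was 31.7 FPKM. Both lay above the median of 16.51 FPKM over the 10861 genes. In wild type on nrde-3 RNAi, which shares the control library, the 368 genes had a median log2 fold of 0.04. Of them 23 were lower by 2-fold (6.25%, against 1.37% of the 10861 genes) and 3 were higher (0.815%, against 1.21%), and the control library that these folds share took part in choosing the set. Besides the 10 RNAi genes the set held drsh-1 and pash-1, which act in microRNA processing: drsh-1, which encodes the nuclease Drosha, had 27.8 FPKM on control RNAi and 8.47 in the library labelled drh-1 RNAi, and pash-1, which encodes its partner Pasha, had 39.8 and 13.5. Other single genes of the set had similar differences. The FACT subunit gene hmg-4 had 110 and 26.6 FPKM, the topoisomerase I gene top-1 had 122 and 31.4, and atl-1, the gene of the checkpoint kinase ATR, had 22.6 and 7.39. The Rb-related gene lin-35 had 31.8 and 10.01 FPKM, and smc-5 and smc-6, which encode partners in a cohesin-like complex, had 87.5 and 30.3 and 35.8 and 14.8. These examples were chosen after their values were seen, and no class of genes was counted in the set.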

How the data were processed

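The authors deposited FPKM values, 1 per gene and library, in 1 table for drh-1 RNAi and another for nrde-3 RNAi, each scaled on its own. Per the submitters' processing notes, Trim Galore, TopHat2, Cufflinks and Cuffdiff were used with build WBcel235; the sources used here give no versions, settings or annotation. The wild-type control library was 1.08 times higher in the nrde-3 RNAi table (median ratio), so levels across tables are side by side only. The tables give no counts, bounds or test values, so depth is unknown and no interval can be given.

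Of 37425 entries, 344 were left out because a gene ID had more than 1 entry. A locus position can span several entries, so short genes inside longer loci pass the 200 bp minimum. Genes were kept at 1 FPKM or more in either library. Folds were taken on log2(FPKM + 1), and a gene counted as called at 4-fold, with 2-fold as an alternative. Classes and gene lengths came from RefSeq (11411 of 11452 genes matched). Names were current gene symbols where listed (11146 of the 11452) and the deposited symbols otherwise. No sequences were used here.

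Samples were grouped by genotype and food from the labels. Members and gene lists were chosen with earlier results of these data known. Named genes were the list of Dicer and dsRNA sensing, the members of the other RNAi and pathogen response lists past 2-fold, the 12 highest and 12 lowest folds among called genes with at least 5 FPKM, and 2 neighbours of drh-1 on each side. All other named genes, list examples included, were chosen after their values were seen. The fold code was tested on simulated data. The code ran in Python 3.11.15 with numpy 2.4.6, pandas 2.3.3 and, for plots, matplotlib 3.10.9.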

Additional observations from a re-analysis of the deposited data

Results flagged for a closer look

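A few genes differed in opposite directions between control RNAi and the library labelled drh-1 RNAi in wild type and in the triple mutant. Each side is 1 library, so the difference between genotypes was not tested. The values that follow are the log2 fold in wild type minus that in the triple mutant, on FPKM plus 1. For Y67H2A.10 it was -11.84, with 1040.3 and 10.96 FPKM in wild type and 32.6 and 1417.9 in the triple mutant. The zinc finger gene sea-2 gave 9.57, with 1.16 and 46.3 FPKM in wild type and 189 and 4.48 in the triple mutant. The kinase gene grk-1 gave 8.19, with 2.93 and 78.8 against 75.8 and 4.32. The heterochronic gene lin-14 gave 6.51, with 3.03 and 74.5 against 26.6 and 4.69. Y54G2A.28 gave -5.65, with 63.8 and 5.26 FPKM in wild type and 24.6 and 123.02 in the triple mutant.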

How the results depend on the processing

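No paired analysis was possible because each food and genotype has 1 library, and no library could be left out for the same reason. Calls by non-overlapping bounds could not be run, since the table gives no bounds. Alternatives that only change which genes are kept cannot alter the log2 fold of drh-1. Under those that can, it stayed positive, between 0.95 (pseudocount of 5, short of 2-fold) and 1.32 (centred). Counts of called genes depended on the settings. At 4-fold a pseudocount of 0.1 gave 207 higher and 213 lower, and one of 5 gave 27 and 42. At 2-fold a pseudocount of 5 gave 161 and 624, a filter at 5 FPKM gave 228 higher, and centring on the median gave 597 and 712. Alternatives chosen after seeing the data kept RefSeq protein-coding genes (26 higher and 25 lower at 4-fold, 253 higher at 2-fold) or loci of 1 entry (21 and 16 at 4-fold, 183 and 641 at 2-fold), or took wild type on nrde-3 RNAi as the reference. In both genotypes 91 genes were higher and 368 lower at 2-fold, against 7 and 17 at 4-fold. Of the list medians, that of the major sperm protein genes moved by more than 1.5-fold, to 0.45 with a pseudocount of 5. That of the cuticle collagens dropped from 0.98 to 0.46 with the same pseudocount, just short of that mark.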
